A study of Mus musculus with 18 samples.

Results

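Amh, Inha, Inhbb, Fshr, Sox9, Wt1, Cldn11, Clu, Cst9 and Cst12 are genes by which Sertoli cells, the somatic supporting cells of the testis, are commonly recognised. They were followed here through mouse cells that had been sorted as germ cells, or as cells on the way to them. These 10 genes were chosen by name from that common knowledge, but with earlier results of these data known. The probes bearing one of the names on all 18 arrays were taken, 14 of 41174 probes. They stood for 10 of the 18878 genes tested. All 10 genes passed the filter on dim probes, which kept probes that the extraction software marked as well above background throughout 1 group or more. Amh, Fshr, Cst9 and Cst12 passed it only through the juvenile testis arrays, so these 4 had to give signal there, and no count over the members is offered as support for a difference.

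Agilent mouse arrays, hybridised in one colour, measured the RNA of 9 groups of 2 samples, all labelled male and of a mixed C57BL/6 129SV strain. There were 4 groups of undifferentiated embryonic stem (ES) cells grown on feeder fibroblasts, sorted for the presence (GFP+) or absence (GFP-) of green fluorescent protein, from a Stella-GFP line, which carries a bacterial artificial chromosome reporter for Dppa3, and from a Dazl-GFP line. A further 3 groups were GFP+ cells sorted after the feeders had been depleted and the cells differentiated, Stella-GFP at day 7 and Dazl-GFP at day 12 and day 16, named in vitro PGCs (primordial germ cells) in the labels. The remaining groups were Dazl-GFP+ germ cells sorted from enzyme-dissociated gonads of transgenic animals, from embryos at E13.5 and from testes of mice at postnatal days 7 to 11 (juvenile testis). Every group therefore rests on a reporter transgene, each reporter line is used as a single line, and the ages of the juvenile animals are pooled under 1 label. Whether replicates are separate cultures or animals is not stated, so that each p-value covers only the scatter of these samples, possibly a technical one.

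Sertoli cells line the cords of the testis and enclose the germ cells. The transcription factor Sox9 acts downstream of the Y-linked gene Sry in the fetal gonad and commits supporting cells to this fate, and the zinc-finger factor Wt1 is needed to keep it. Fetal Sertoli cells secrete anti-Müllerian hormone (Amh), which makes the Müllerian ducts regress. Later they respond to follicle-stimulating hormone (FSH) through its receptor Fshr and return inhibin, a dimer of an alpha subunit (Inha) and a beta subunit (Inhbb among them), to the pituitary. Their tight junctions, built with Cldn11, seal the blood-testis barrier. Most of these genes have other sources too: Amh, Inha, Inhbb and Fshr are granulosa cell genes of the ovary, and Clu, Inhbb, Sox9 and Wt1 are found in many other tissues.

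The levels given below are log2 signals relative to the 75th percentile of the same array, which is set to 0. That percentile ranged from 103 to 474 in signal units, each array had 50.6% to 68.9% of its spots well above background, and the correlation of replicate arrays across genes ran from 0.943 at E13.5 to 0.994 at day 7 (Pearson's r). The germ cell genes Dazl and Ddx4 were well above background on all 4 gonad arrays, at 4.79 to 5.42 and 4.47 to 5.59. The library labelled E13.5 replicate 1 went against its label. None of 4 Y-linked genes was well above background on it, and Ddx3y and Eif2s3y lay at -7.45 and -7.29, against -4.00 to -0.27 and 0.74 to 3.17 on the other arrays, where both were well above background throughout. Results on the members that rest on this library are given with and without it. The E13.5 and juvenile arrays shared a slide and a scan day with no cultured cells, and day 7 filled slides of its own, so for comparisons of these groups with other cells in culture, slide and group cannot be told apart.

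On both juvenile testis arrays all 10 Sertoli cell genes were well above background. On E13.5 replicate 2 the number was 9, on the library labelled E13.5 replicate 1 it was 5, and on the 14 arrays of cultured cells, ES cells included, it ranged from 3 to 7. Both juvenile arrays lay above every cultured array for 8 of the 10 genes, the exceptions being Sox9 and Inhbb. The same order was seen for 21.4% of all genes tested. Amh, Fshr, Cst9 and Cst12, among the 8, had passed the filter on dim probes only through the juvenile arrays, which favoured this order beforehand. E13.5 replicate 2 lay above every cultured array for 5 members, Amh, Wt1, Cldn11, Cst9 and Cst12, where 26.4% of all genes did so, and the library labelled E13.5 replicate 1 for 2, Inha and Cst12, where 27.8% of all genes did so. In RNA from sorted populations, a smaller number of cells of a type and less RNA per cell cannot be told apart.

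**Figure D1:**
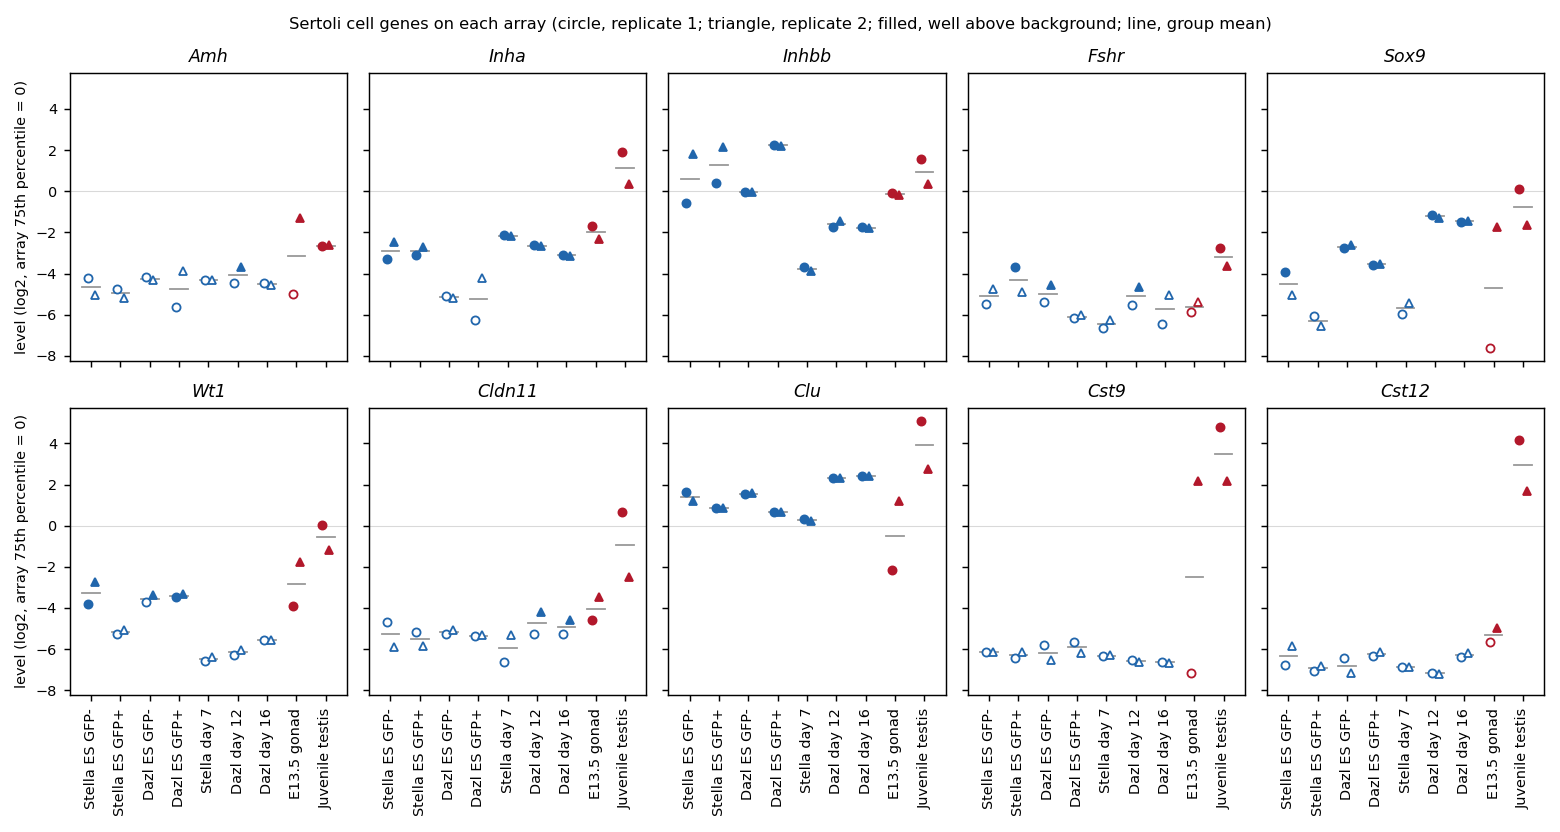
Level of each of the 10 Sertoli cell genes (vertical axis, log2, array 75th percentile = 0) on each of the 18 arrays, by group; circles are replicate 1, triangles replicate 2, filled symbols are well above background, blue is culture, red is gonad, and the short line is the mean of the 2 arrays. Cst9 and Cst12 are open, from -7.21 to -5.66, on all 14 cultured arrays and reach 4.79 and 4.19 on juvenile replicate 1, while Inhbb is filled on every array and highest in Dazl-GFP+ ES cells.

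Among the hormones, Amh was -1.30 on E13.5 replicate 2 and well above background there, but -5.00 and dim on the library labelled E13.5 replicate 1. Both juvenile arrays gave -2.64. The cultured arrays ran from -5.61 through a median of -4.39 to -3.66, and Amh was well above background on 1 of them, a day 12 array. E13.5 replicate 2 and the juvenile arrays were thus the 3 highest of the 18, and the library labelled E13.5 replicate 1 lay within the range of culture. The juvenile mean exceeded the E13.5 mean by 0.51 ± 0.90 (SE, n = 2 per group; adjusted p = 0.721), and the sign turned, to -1.34, without the library labelled E13.5 replicate 1 and, to -0.25, after normexp background correction, a model-based alternative to the scanner software's correction. Normexp here added 50 to every signal before scaling. The 75th percentile of the processed signal was 156 and 164 at day 16, 343 and 359 at E13.5 and 474 and 435 in juvenile testis. The part of this offset in the signs that turned, here and below, was not tested.

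Inha was -1.69 and -2.30 on the E13.5 arrays and 1.91 and 0.36 on the juvenile arrays, so the groups did not overlap. In culture it ran from -6.25 through a median of -3.09 to -2.13 and was well above background on 10 of 14 arrays, dim in all 4 samples of Dazl-GFP ES cells. The juvenile mean was higher than the E13.5 mean by 3.13 ± 0.59 (adjusted p = 0.00183) and than the day 16 mean by 4.24 ± 0.59 (adjusted p = 1.42e-04). Both differences passed whichever 1 of the gonad libraries they use was left out, and a second Inha probe gave 2.42 ± 0.68 and 4.48 ± 0.68.

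Inhbb behaved otherwise. It was well above background on all 18 arrays, at -0.06 and -0.17 at E13.5, at 1.57 and 0.34 in juvenile testis, and between -3.86 and 2.23 in culture with a median of -0.30. Its 2 highest values, 2.23 and 2.22, came from Dazl-GFP+ ES cells, and its 2 lowest, -3.69 and -3.86, from Stella-GFP day 7 cells. Juvenile and E13.5 means differed by 1.07 ± 0.69 (adjusted p = 0.264). Against day 16 the juvenile mean was higher by 2.73 ± 0.69 (adjusted p = 0.00648), or by 2.11 (adjusted p = 0.0606) without juvenile replicate 1, and a second probe gave 0.57 ± 0.38 (adjusted p = 0.232 over all probes).

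Fshr, the receptor through which FSH reaches Sertoli cells, was well above background in the gonad only on the juvenile arrays, at -2.75 and -3.62. Both E13.5 arrays were dim, at -5.85 and -5.38. Culture ran from -6.63 through a median of -5.42 to -3.67, with 3 scattered arrays well above background, and the highest of these came close to the lower juvenile array. The juvenile mean was at least 4.60-fold above E13.5 (adjusted p = 0.00542) and at least 3.36-fold above day 16 (adjusted p = 0.00268), bounds set by the lowest signal that counted as well above background; after normexp correction the difference from day 16 turned to -1.46 and that from E13.5 was 0.27 (adjusted p = 0.551). The 250 bases before the RefSeq start of Fshr (chr17:89200676-89200925, GRCm38.p6, minus strand) are shown because they hold the 1 match among all 6 promoters found to an E-box, in capitals, the motif known from work on this promoter:
Fshr: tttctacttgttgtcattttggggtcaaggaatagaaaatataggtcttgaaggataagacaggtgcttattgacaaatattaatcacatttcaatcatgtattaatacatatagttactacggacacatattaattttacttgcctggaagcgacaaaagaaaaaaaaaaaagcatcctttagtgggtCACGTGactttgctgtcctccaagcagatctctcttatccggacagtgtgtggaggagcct

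The E-box CACGTG stood 61 to 56 bases before the start, and 6.05% of 27025 promoters of this length held one. Other motifs were looked for on both strands of the 6 promoters matched, those of Inha, Inhbb, Cldn11, Fshr, Cst9 and Cst12. They were the SF-1 half-site AAGGTCA (4.05% of all promoters), the SOX cores ACAATG and ACAAAG (25.5%), the GATA cores AGATAA and TGATAA (17.0%) and the cAMP response element TGACGTCA (1.62%). The windows of Inha, Inhbb, Cldn11 and Cst12 held none of these letters, and a match describes letters only.

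Of the transcription factors, Sox9 was -1.76 on E13.5 replicate 2 but -7.60 on the library labelled E13.5 replicate 1, the lowest of all 18 arrays. The juvenile arrays gave 0.12 and -1.64. Culture spanned -6.54 to -1.13 around a median of -3.55, with 9 arrays well above background. On the probe that stood for the gene, the day 12 arrays, at -1.13 and -1.31, and the day 16 arrays, at -1.48 and -1.42, lay above E13.5 replicate 2 and the lower juvenile array. A second probe, present in 10 copies, did not give this order. On it day 12 was -2.89 and -2.82 and day 16 -2.54 and -2.58, all below E13.5 replicate 2 at -2.48, with the lower juvenile array at -2.54. In Stella-GFP day 7 cells Sox9 was dim. The juvenile mean exceeded the E13.5 mean by 3.92 ± 1.31 (adjusted p = 0.0372), but by 1.003 (adjusted p = 0.229) without the library labelled E13.5 replicate 1 and by 3.04 (adjusted p = 0.198) without juvenile replicate 1. For this difference the probe in 10 copies gave 3.03 ± 1.0028, and another, well above background on the juvenile arrays alone, gave 0.54 ± 0.56. The juvenile mean and the day 16 mean differed by 0.70 ± 1.31 (adjusted p = 0.691), a difference that turned to -0.18 without juvenile replicate 1 and to -0.10 after normexp correction.

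Wt1 was well above background on all 4 gonad arrays, at -3.89 and -1.75 at E13.5 and at 0.03 and -1.18 in juvenile testis. In culture it ran from -6.58 through a median of -5.16 to -2.72. It was well above background on 5 cultured arrays, all of them of ES cells, and dim in each differentiated group. The E13.5 mean was at least 4.32-fold above day 16 (adjusted p = 0.00314, or 1.70e-04 if the library labelled E13.5 replicate 1 is left out), although normexp correction turned this difference to -1.05. The juvenile mean was at least 20.5-fold above day 16 (adjusted p = 4.20e-05), a log2 difference of 0.22 (adjusted p = 0.639) after normexp correction. It was above the E13.5 mean by 2.25 ± 0.59 (adjusted p = 0.0114), or by 1.18 (adjusted p = 0.0748) and 1.64 (adjusted p = 0.0971) when either the library labelled E13.5 replicate 1 or juvenile replicate 1 was left out.

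Cldn11, the claudin of Sertoli cell tight junctions, was -4.59 and -3.48 at E13.5 and 0.65 and -2.48 in juvenile testis, 2 juvenile arrays that lay far apart yet both above E13.5. In culture it ran from -6.64 through a median of -5.25 to -4.22, with 2 arrays well above background. The juvenile mean was above E13.5 by 3.12 ± 0.86 (adjusted p = 0.0148), by 2.56 (adjusted p = 0.0805) without the library labelled E13.5 replicate 1 and by 1.56 (adjusted p = 0.130) without juvenile replicate 1. It was above day 16 by 4.00 ± 0.86 (adjusted p = 0.00242), by 2.44 (adjusted p = 0.0179) without juvenile replicate 1 and by 0.15 (adjusted p = 0.814) after normexp correction.

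Clu, which encodes clusterin, a secreted chaperone abundant in Sertoli cells and in many other cells, was well above background on every array. It was -2.17 on the library labelled E13.5 replicate 1, the lowest of the 18, and 1.18 on replicate 2, which lay within the culture range of 0.25 to 2.41 (median 1.36). Juvenile testis gave 5.10 and 2.75, both above all other arrays. The juvenile mean was higher than E13.5 by 4.42 ± 0.87 (adjusted p = 0.00235), and by 2.74 (adjusted p = 0.00801) without the library labelled E13.5 replicate 1. The E13.5 mean was lower than day 16 by a log2 difference of -2.90 ± 0.87 (adjusted p = 0.0197), and of -1.22 (adjusted p = 0.169) without that library; it missed the threshold without either day 16 array as well (adjusted p = 0.0776 and 0.0751).

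The cystatins Cst9 and Cst12 showed the largest differences of the 10 in both comparisons of juvenile testis. Cystatins are inhibitors of cysteine proteases, and Cst9, testatin, is known from pre-Sertoli cells at the time the testis cords form. Cst9 was 2.16 on E13.5 replicate 2, 4.79 and 2.15 on the juvenile arrays and dim everywhere else, at -7.15 on the library labelled E13.5 replicate 1 and from -6.66 through a median of -6.32 to -5.66 in culture. E13.5 replicate 2 was at least 191-fold above the library labelled E13.5 replicate 1, where the signal was dim and gives only a bound. Cst12 was 4.19 and 1.69 in juvenile testis, -4.96 and well above background on E13.5 replicate 2, and dim at -5.67 on the library labelled E13.5 replicate 1 and from -7.21 through a median of -6.80 to -5.83 in culture. So E13.5 replicate 2 was at the level of the lower juvenile array for Cst9 and far below it for Cst12.

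Against day 16, where both genes were dim, juvenile testis was at least 338-fold higher for Cst9 (adjusted p = 0.00168) and at least 234-fold higher for Cst12 (adjusted p = 7.78e-07). Cst12 was also above E13.5 by 8.26 ± 0.62 (adjusted p = 3.35e-06) and by 7.90 without the library labelled E13.5 replicate 1. For Cst9 the juvenile mean exceeded the E13.5 mean by 5.96 ± 2.04 (adjusted p = 0.0407), but by 1.31 (adjusted p = 0.214) without the library labelled E13.5 replicate 1, and by -0.0065 when juvenile replicate 1 was left out as well. Without juvenile replicate 1 or replicate 2 alone it missed the threshold too (4.65, adjusted p = 0.209, and 7.28, adjusted p = 0.0526).

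Both genes start on the plus strand of chromosome 2. The 250 bases before the RefSeq start of Cst9 (chr2:148834897-148835146) and of Cst12 (chr2:148789115-148789364), both GRCm38.p6, are printed because these were the members dark in every cultured array; capitals mark a SOX core on the minus strand, 152 to 147 bases before the start of Cst9, and a GATA core at 57 to 52.
Cst9: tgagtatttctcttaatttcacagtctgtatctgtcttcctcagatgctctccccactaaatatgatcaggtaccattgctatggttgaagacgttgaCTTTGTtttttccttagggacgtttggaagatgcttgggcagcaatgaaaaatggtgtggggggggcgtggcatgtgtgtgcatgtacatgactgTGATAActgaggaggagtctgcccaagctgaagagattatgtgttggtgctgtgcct
Cst12: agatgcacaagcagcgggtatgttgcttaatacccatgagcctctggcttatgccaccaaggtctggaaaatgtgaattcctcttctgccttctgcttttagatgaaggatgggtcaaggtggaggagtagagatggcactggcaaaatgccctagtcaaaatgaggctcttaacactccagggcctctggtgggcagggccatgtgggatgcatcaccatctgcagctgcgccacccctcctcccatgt

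Genes that neighbour Cst9 and Cst12 in the RefSeq order, a cluster of cystatin genes, were looked up after the values of these 2 were known. Cst8, Cst11 and Cstdc1 were dim on all 14 cultured arrays as well and well above background on 4, 3 and 3 gonad arrays. Cst8 was -3.19 and -0.49 at E13.5 and -2.38 and -2.56 in juvenile testis. Cstdc1 was highest on juvenile replicate 1, at -1.47, against -4.49 on replicate 2 and -4.33 on E13.5 replicate 2. Cstl1 and Cstdc2 were dim on all 4 gonad arrays, and the widely expressed Cst3 was well above background on every array, from 3.29 to 4.48. Signal in the gonad was thus seen for some genes of the cluster and not for others.

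Set beside each other, 8 of the 10 members were called higher in juvenile testis than at E13.5 (adjusted p under 0.05 over 18878 genes in limma), namely Inha, Fshr, Sox9, Wt1, Cldn11, Clu, Cst9 and Cst12, and none lower. Over all genes 34.9% were called, 16.0% as higher, and the members' median difference was 3.12, against -0.08 for all genes. Count and median include Fshr, Cst9 and Cst12, which had passed the filter on dim probes only through the juvenile arrays. Without the library labelled E13.5 replicate 1 the members called were 4 (Cst12, Inha, Clu and Fshr), where 40.3% of all genes were called, and without juvenile replicate 1 also 4, where 31.6% were. With both of these libraries left out, an alternative added after the data were seen, Cst12, Clu and Inha were the members still called. The shares of all genes given for these fits count both directions, whereas every member called was higher. Shares called as higher were not compared, so these fits do not answer whether members rose more often than other genes. Cst12, Clu and Inha thus passed in each of these fits.

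Between juvenile testis and day 16 culture, 7 members were called higher and none lower, with 49.3% of all genes called and 26.2% as higher. After normexp correction 5 were higher and 2, Amh and Fshr, lower. With that correction 73.6% of all genes were called, and 32.2% of the genes called were higher. Before it the members' median difference was 3.37 against 0.12 for all genes. Count and median again include Fshr, Cst9 and Cst12, which had passed the filter on dim probes only through the juvenile arrays. Amh (1.85 ± 0.90, adjusted p = 0.111; -1.42 after normexp correction), Clu (1.52 ± 0.87, adjusted p = 0.173) and Sox9 did not pass. With the library labelled E13.5 replicate 1 left out of the fit, which this comparison uses only for its error, 9 passed, Amh and Clu among them, and 55.4% of all genes. Between E13.5 and day 16, 1 member was higher, Wt1, and 1 lower, Clu, with 42.5% of all genes called, 24.1% as higher and 18.4% as lower. Without the library labelled E13.5 replicate 1 there were 3 higher, Wt1, Amh (adjusted p = 0.00164) and Cst9 (adjusted p = 1.98e-05), and none lower, where 43.1% of all genes were called; after normexp correction 7 members were lower and none higher, where 73% of all genes were called. Comparisons that use the same day 16, E13.5 or juvenile arrays are not independent of each other.

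**Figure D2:**
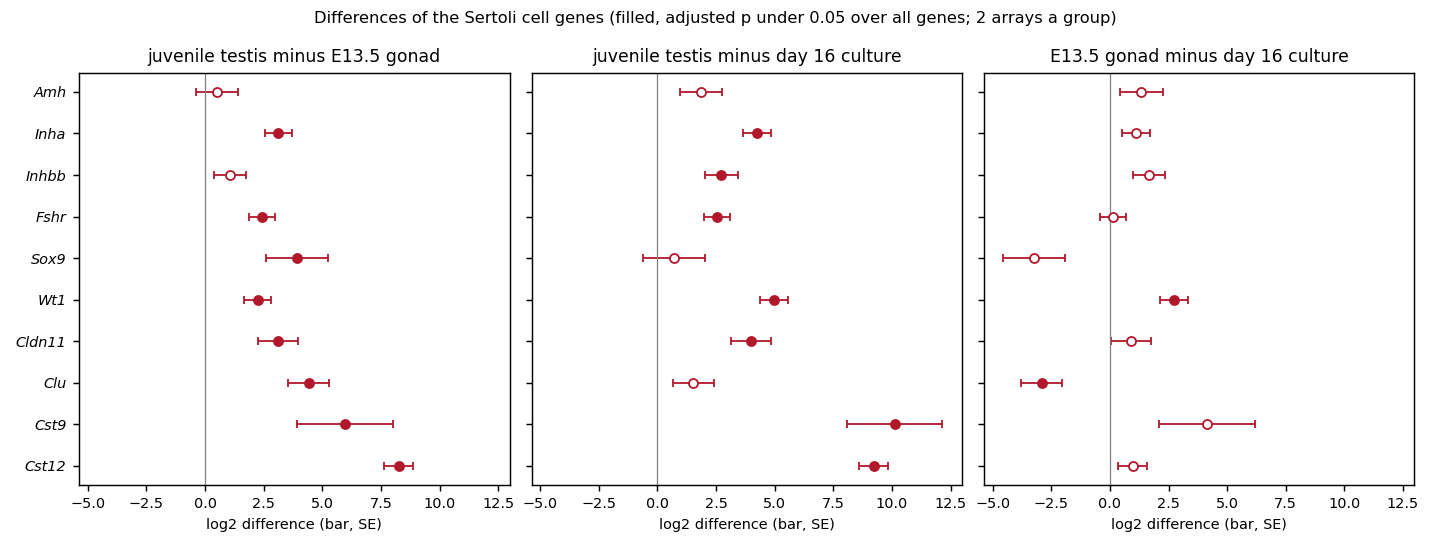
Log2 difference of each Sertoli cell gene (horizontal axis; bars are the SE from limma, 2 arrays per group) between juvenile testis and E13.5, juvenile testis and day 16 culture, and E13.5 and day 16 culture; filled symbols passed an adjusted p under 0.05 over all genes. Cst9 and Cst12 lie farthest to the right in both juvenile comparisons. Clu is the only filled symbol left of 0, in the comparison of E13.5 with day 16, where Sox9 lies left of 0 as an open symbol. Differences after normexp correction are not drawn. With it, Amh, Fshr and Sox9 turned negative for juvenile testis against day 16, and Amh for juvenile testis against E13.5. For E13.5 against day 16, Wt1, Cldn11, Cst12, Fshr, Inha and Amh turned negative.

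In juvenile testis 9 of 10 members were higher on replicate 1, Amh being level, with a median of 1.66 (replicate 1 minus 2) between replicates against -0.10 for all genes, of which 43.8% were higher on replicate 1. The gap was largest for Cldn11, at 3.13, exceeded by 0.418% of genes, and was 2.64 for Cst9, 2.50 for Cst12 and 2.35 for Clu. At E13.5, 8 of 10 members were lower on the library labelled replicate 1, with a median of -1.63 against -0.06 for all genes. Of all genes, 46.5% were higher on that library. Cst9, Sox9 and Amh were dim on that library, so that replicate 2 was at least 191-fold, 12.7-fold and 13-fold above it. Clu, well above background on both, differed by -3.35, whereas Inha (0.61) and Inhbb (0.10) lay close together.

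**Figure D3:**
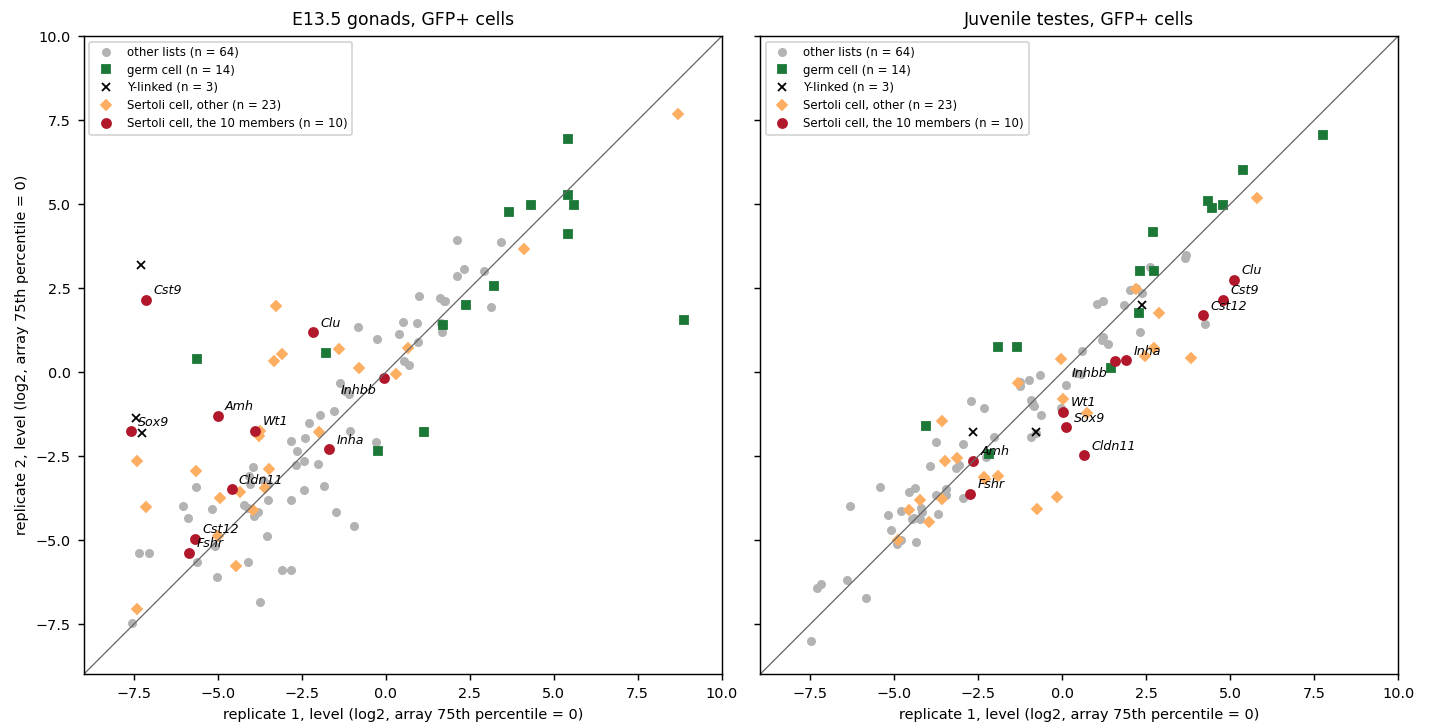
Replicate 2 against replicate 1 (log2 levels, array 75th percentile = 0) for genes of the marker lists at E13.5 and in juvenile testis, with the line of equal levels; red circles are the 10 Sertoli cell genes, orange diamonds 23 other Sertoli cell genes, green squares germ cell genes, crosses Y-linked genes and grey circles genes of the other lists. At E13.5 most members lie above the line, Cst9 the farthest of them, and in juvenile testis 9 of 10 lie below it.

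Other genes moved between the E13.5 replicates as well; they are named here for their values, which were seen first. Dhh, a Sertoli cell ligand, was -3.28 on the library labelled replicate 1 and 1.97 on replicate 2, and the male germ cell gene Nanos2 was -5.63, dim, and 0.39. The meiotic entry gene Stra8 was 8.87 and 1.55. Of the granulosa cell list, Wnt4 was -0.95 and -4.59 and Bmp2 -3.75 and -6.83. Foxl2, at -3.51 and -3.33, and Rspo1, at 2.11 and 2.86, were instead higher on replicate 2. Over that whole list 4 and 3 of 6 genes were well above background, with summed levels, as multiples of the array's 75th percentile, of 5.03 and 7.42 at E13.5, 2.197 and 4.29 in juvenile testis and 0.84 to 4.74 in culture; Irx3 was dim on all 4 gonad arrays. The part of these differences in the members' values was not tested.

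The summed level of the 10 members was 1.68 and 8.97 on the E13.5 arrays, 90.99 and 18.1 on the juvenile arrays and 1.62 to 6.66 in culture, and juvenile replicate 1 stood far above replicate 2. Erythroid cell genes also summed above every cultured array, to 0.837 and 1.144 in juvenile testis and 1.436 and 2.352 at E13.5 against 0.177 to 0.478 in culture, with 4 and 3 of 5 genes well above background in juvenile testis, 3 and 3 at E13.5 and 1 to 3 in culture. Of the 3 erythroid genes tested, the globin gene Hba-a1, which has a near-identical copy, was higher than at day 16 in juvenile testis (2.24 ± 0.45, or 0.15 after normexp correction) and at E13.5 (3.37 ± 0.45, or 1.09). Alas2, of heme synthesis, was at least 3.74-fold higher in juvenile testis, a difference that turned to -1.38 after normexp correction. The Leydig cell genes, 5 of 6 well above background on both, summed to 0.946 and 1.11 there, 1.44 and 1.09 at E13.5 and 0.947 to 4.34 in culture, with Lhcgr, the luteinizing hormone receptor, dim on all 4 gonad arrays. The peritubular myoid genes, 6 of 6 on both, summed to 8.97 and 10.5, against 6.20 and 9.04 at E13.5 and 7.94 to 78.4 in culture. The fibroblast genes, 9 of 9, summed to 7.59 and 8.77, against 1.60 and 1.93 at E13.5 and 2.94 to 43.0 in culture. Macrophage genes (5 and 6 of 9) summed to 0.389 and 0.394, against 0.862 and 0.590 at E13.5 and 0.775 to 1.41 in culture, and endothelial genes (6 and 7 of 8) to 5.23 and 6.67, against 2.31 and 3.34 and 9.08 to 15.4. Germ cell genes, 14 of 14 well above background on both, summed to 353.9 and 336.7, against 699.8 and 288.7 at E13.5 and 58.8 to 595.5 in culture, and 4 of the 14 were higher on replicate 1, with a median of -0.53. The part of cells other than germ cells in the members' levels was not tested.

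**Figure D4:**
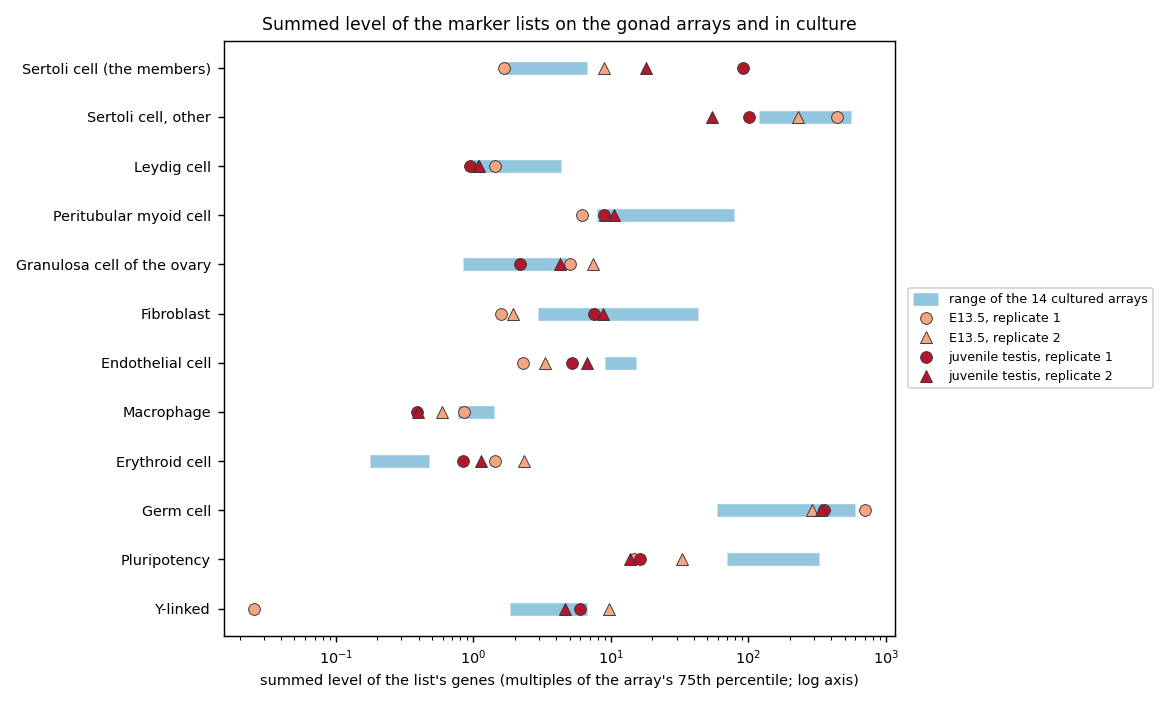
Summed level of each marker list (horizontal log axis, multiples of the array's 75th percentile) on the 4 gonad arrays, with the range of the 14 cultured arrays as a blue bar. Both juvenile arrays and E13.5 replicate 2 lie above the culture range for the 10 Sertoli cell genes and for the erythroid cell genes, where the library labelled E13.5 replicate 1 does too, and the Y-linked sum on the library labelled E13.5 replicate 1 lies at 0.0255, far below every other array.

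A list of 25 further Sertoli cell genes, written with earlier results of these data known, had 23 tested. In juvenile testis against E13.5, 11 rose and 2 fell, where 34.9% of all genes were called, with a median of 1.49. Without the library labelled E13.5 replicate 1, an alternative added after the data were seen, 8 rose and 4 fell. The male sex factor Dmrt1, which germ cells make as well, rose by 1.64 ± 0.21, the lysosomal protease gene Ctsl by 1.60 ± 0.28, and Kitl, the ligand of the germ cell receptor Kit, by 1.61 ± 0.35. The homeobox gene Rhox5 fell by 6.47 ± 0.69 and Etv5 by 2.17 ± 0.63. Without that library these 5 differences were 1.60, 1.81, 1.0046, -5.95 and -3.21. Against day 16, 10 rose and 5 fell in juvenile testis (49.3% of all genes called), where the gap junction gene Gja1 was lower by a log2 difference of -3.26 ± 0.73. After normexp correction 4 rose and 14 fell, where 73.6% of all genes were called, and 32.2% of the genes called were higher. E13.5 had 2 higher than day 16, Espn and Cyp26b1 (1.18, and -0.89 after normexp correction), and 5 lower, Gja1 (-6.34 ± 0.73) and Nr0b1 (-3.62 ± 0.86) among them, where 42.5% of all genes were called. After normexp correction 1 was higher and 15 lower, where 73% of all genes were called, and 35% of the genes called were higher. With the library labelled E13.5 replicate 1 left out, Gja1 was at -4.79 and Nr0b1 at -2.68, and Cyp26b1, at 1.28, no longer passed. Unlike the 10 members, the summed level of this list was not highest in juvenile testis, at 100.3 and 54.2 against 438.9 and 230.1 at E13.5 and 119.6 to 558 in culture, and Rhox5 alone had a mean log2 level of 8.19 at E13.5.

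Of 19 genes of AMH, inhibin, activin and FSH signalling 17 were tested. Between juvenile testis and E13.5, 5 rose and 4 fell, where 34.9% of all genes were called. Amhr2, the receptor of Amh, rose by 2.49 ± 0.66 (adjusted p = 0.0126), or by 1.86, short of the threshold, without the library labelled E13.5 replicate 1. The activin receptor gene Acvr2a rose by 1.56 ± 0.25, while the type I receptor genes Bmpr1a and Acvr1 fell by 1.25 ± 0.20 and 1.22 ± 0.27. The activin-binding follistatin gene Fst rose by 3.22 ± 0.87 from a mean at which 1 of 2 E13.5 arrays was well above background, or by 2.19 (adjusted p = 0.102) without that library. Between E13.5 and day 16, Smad5 was higher by 0.95 ± 0.27, Smad1 lower by a log2 difference of -1.36 ± 0.28, and no other gene of the list was called, where 42.5% of all genes were. After normexp correction 5 genes were higher and 5 lower, where 73% of all genes were called, and 35% of the genes called were higher. With the library labelled E13.5 replicate 1 left out, Smad5 was at 1.0086 and Smad1 at -0.87. Against day 16, juvenile testis had 4 higher, Amhr2 by 2.71 ± 0.66, and 3 lower, where 49.3% of all genes were called. Normexp correction gave 5 higher and 6 lower, where 73.6% of all genes were called, and 32.2% of the genes called were higher.

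Within culture the members moved in both directions. In Dazl-GFP+ cells at day 12 against Dazl-GFP+ ES cells, Inha was at least 2.56-fold higher (adjusted p = 0.00796), Inhbb lower by a log2 difference of -3.81 ± 0.69 (adjusted p = 0.00213) and Wt1 at least 2.79-fold lower (adjusted p = 0.00553), where 27.3% of all genes were called, 13.1% as higher and 14.2% as lower; after normexp correction Inha turned to -0.22. At day 16 the same 3 passed, Inha at least 1.84-fold higher, Inhbb by -3.99 ± 0.69 and Wt1 at least 2.90-fold lower, where 24.7% of all genes were called, 11.1% as higher and 13.6% as lower; after normexp correction Wt1 turned to 0.30. Without the first replicate of the Dazl-GFP+ ES cells, where Inha was -6.25 against -4.24 on the other, Inha passed at neither day, and the second Inha probe differed by 0.75 ± 0.68 and -0.22 ± 0.68. At day 16 Wt1 also missed the threshold without any 1 of the 4 arrays compared (adjusted p between 0.0827 and 0.0963), and Inha without either day 16 array (0.105 and 0.0948). Inhbb passed in each of these fits, and its second probe was lower as well, by -1.37 ± 0.38 and -1.81 ± 0.38.

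The fall of Inhbb in culture was seen in the Stella-GFP line too, where day 7 cells were lower than Stella-GFP+ ES cells by a log2 difference of -5.06 ± 0.69 (adjusted p = 6.82e-04), with 20.6% of all genes called, 7.62% as higher and 13% as lower, although the second probe gave -0.81 ± 0.38 (adjusted p = 0.153). Inhba, which encodes the other main beta subunit of inhibins and activins, was lower as well, by -8.33 ± 0.79 at day 12, where 1 of 2 arrays was well above background, at least 274-fold at day 16 and at least 20.6-fold at day 7. The ES cells had been grown on feeder fibroblasts, depleted before differentiation. In the same comparisons the 9 fibroblast genes had median differences of -3.605 at day 12, -2.51 at day 16 and -2.21 at day 7. The part of feeder cells in the falls of Inhbb, Inhba and Wt1 was not tested. Fshr was also called lower at day 7, at least 1.21-fold, from a single Stella-GFP+ ES array well above background, and missed the threshold without that array (adjusted p = 0.130) or without either day 7 array (0.116 and 0.0658). Sox9 at day 12 and day 16 exceeded Dazl-GFP+ ES cells by 2.33 ± 1.31 (adjusted p = 0.216) and 2.10 ± 1.31 (adjusted p = 0.270), and Clu by 1.63 ± 0.87 and 1.72 ± 0.87 (adjusted p = 0.191 and 0.176). None of these 4 passed, but all 4 did when the library labelled E13.5 replicate 1 was left out of the shared error, where 36.7% and 34.8% of all genes were called.

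Sorting ES cells by either reporter called no member in limma. In the Dazl-GFP line, where 2.87% of all genes were called, 1.48% as higher and 1.39% as lower, Inhbb differed in GFP+ cells by 2.25 ± 0.69 (adjusted p = 0.129), with the 2 GFP+ arrays at 2.23 and 2.22 and the GFP- arrays at -0.01 and -0.04. Within slides the difference was 2.24 and 2.26. Fibroblast genes summed to 42.98 and 39.29 in these GFP+ cells and to 9.62 and 9.08 in the GFP- cells, and the part of feeder cells was not tested. In the Stella-GFP line, where 0.44% were called, 0.0901% as higher and 0.35% as lower, Wt1 differed in GFP+ cells by a log2 of -1.90 ± 0.59 (adjusted p = 0.342; 0.20 after normexp correction), from -3.80 and -2.72 to -5.25 and -5.07, and passed (adjusted p = 0.0479) without the library labelled E13.5 replicate 1. At an unadjusted p under 0.05 in limma, Inhbb was the 1 member of 10 for the Dazl-GFP line, beside 2551 of 18878 genes. For the Stella-GFP line Wt1 was the 1 member of 10, beside 1233 of 18878 genes. These counts do not set the members apart from other genes. The difference between both sorts called no member either, the smallest p being 0.0299 for Fshr (adjusted p = 0.897).

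Across the 18 arrays, which share 9 groups and slides, the levels of Cst9 and Cst12 correlated at Pearson's r = 0.883, Cldn11 with them at 0.861 and 0.896, and Sox9 with Clu at 0.846. Cst9 and Cst12 were dim on all 14 cultured arrays, and Cldn11 was well above background on 2 of them. Values of r with these genes, and their nearest genes below, thus rest largely on the gonad arrays that gave signal. Inhbb correlated with the other 9 at r between -0.095 and 0.654, the highest with Wt1. By the rule of the 3 genes of most similar level over the 18 arrays, those nearest to Cst9 were Mro (0.983), Aldh1a2 (0.960) and Rbm11 (0.957), and Serpina5 (0.972) was among those nearest to Cst12. Etd, Tmem114 and Defb19 were nearest to Cldn11 (0.948, 0.940 and 0.934), Gal to Amh (0.915) and Vps9d1 to Inha (0.956). Mro and Defb19 are on the list of further Sertoli cell genes. The other nearest genes ranged from 0.814 to 0.978.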

How the data were processed

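RNA of 18 samples in 9 groups was measured on one-colour Agilent arrays. The deposited files hold spot intensities that, per the file headers, Agilent Feature Extraction 9.1.3.1 had background-corrected (the processed signal); 16 arrays and the 2 day 7 arrays used different extraction protocols. A deposited table of group means was not used.

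Control spots and outlier flags were left out, spots of a probe were averaged, and log2 intensity minus the array's 75th percentile was taken as the level. Genes were named through RefSeq accessions (22951 probes), symbols (9745) or the file's own name (8478). Probes well above background on both arrays of a group or more were kept, and the probe of highest mean stood for its gene. limma 3.58.1 in R 4.3.3 was fitted to all 18 arrays (9 groups, 9 residual degrees of freedom), with p-values adjusted by Benjamini-Hochberg over 18878 genes and 0.05 as threshold. Each ± in a comparison is the SE of that fit. With 2 arrays per group, their number limits the precision. The fit was tested on simulated data: for juvenile testis against E13.5 over 18878 genes it called 57 of 100 genes shifted by a log2 of 2, 93 of 100 shifted by 4 and 9 of 18678 left unshifted. The simulation gave each gene the same spread in every group. The real replicates correlated least at E13.5 (0.943) and in juvenile testis (0.967), so these numbers set no rate of false calls for that comparison.

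The genes named are every member, the check genes Dazl, Ddx4, Dppa3 and 4 Y-linked genes, up to 4 called genes per direction and comparison of each other list, by smallest p, undetected defining markers, and the 3 genes most correlated with a member over 18 arrays; genes outside this rule are said to be. The members and lists were chosen with earlier results of these data known. Alternatives were quantile scaling, normexp correction (offset 50), filters, other probe rules, slide and replicate blocks, and leaving out libraries. Promoters are RefSeq's (GRCm38.p6), 250 bases before the start, found for 6 of 10 members.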

Additional observations from a re-analysis of the deposited data

How the results depend on the processing

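Counts of members called changed by over 1.5 times under these alternatives, and the cause was not tested unless fewer genes or samples entered. Shares in brackets are of all genes called under the same setting. Counts without a share are not set against all genes and say nothing of members as against other genes. Normexp correction gave 7 for E13.5 against day 16 (2 before), where 73% of all genes were called. It gave 1 each for day 12 (8.24%), day 16 (5.77%) and day 7 (4.47%) against ES cells. Asking for signal well above background on every array compared left fewer members to test and gave 4 for juvenile testis against E13.5 (34.8%). It gave 1 for E13.5 against day 16 (44.9%), 2 for juvenile testis against day 16 (50.1%) and 1 for each of day 12 (31.4%), day 16 (28%) and day 7 (26.6%). Slide as a block gave 1 for day 16 against ES cells (14.7%). It could not be run for E13.5 or juvenile testis against day 16, or for day 7. Fitting only the arrays compared gave 1 for juvenile testis against E13.5, where 1.92% of all genes were called, against 34.9% in the fit of all arrays. It gave 1 for E13.5 against day 16 (17.2%), 5 for day 12 (48.9%) and 3 for the Dazl sort (14%). With the library labelled E13.5 replicate 1 left out everywhere, day 12 gave 5 (36.7%), day 16 gave 5 (34.8%) and the Stella sort 1 (1.36%). These comparisons use that library only for their error. With juvenile replicate 1 left out too, juvenile testis against E13.5 gave 3 and E13.5 against day 16 gave 5. Leaving out 1 array at a time gave 4 to 9 for juvenile testis against E13.5, 6 to 8 for juvenile testis and 1 to 3 for E13.5 against day 16, 2 to 3 for day 12, 1 to 2 for day 16, 1 to 2 for day 7 and 0 for both sorts. Signs turned under normexp for juvenile testis against day 16 in Fshr (-1.46), Amh (-1.42) and Sox9 (-0.10), against E13.5 in Amh (-0.25), for E13.5 against day 16 in Fshr (-1.73), Cst12 (-1.62), Cldn11 (-1.43), Amh (-1.16), Wt1 (-1.05) and Inha (-0.66), for Inha at day 12 (-0.22) and day 7 (-0.25), for Wt1 at day 16 (0.30), for Inha (0.33) and Wt1 (0.20) in the Stella sort and for Sox9 in the Dazl sort (0.19). Quantile scaling turned Inha in the Stella sort (0.067). Without 1 array at a time the Stella sort gave -0.53 to 1.85 for Inhbb and -0.42 to 0.40 for Inha, the Dazl sort -0.0075 to 0.30 for Wt1, juvenile testis against day 16 -0.18 to 1.58 for Sox9 and juvenile testis against E13.5 -1.34 to 2.36 for Amh and 1.31 to 10.6 for Cst9. With both libraries left out Amh was -1.34 and Cst9 -0.0065 against E13.5, and Sox9 -0.18 against day 16. Of the genes called, 35% were higher at E13.5 than at day 16 under normexp (56.8% before), 32.2% in juvenile testis against day 16 (53.2%), 16.5% at day 16 (44.9%), 48.3% at day 7 (37%; 47.4% with quantile scaling) and 32% in the Dazl sort (51.5%). Genes called fell under normexp from 5152 to 1555 at day 12, 4668 to 1090 at day 16, 3893 to 844 at day 7, 542 to 75 in the Dazl sort and 83 to 9 in the Stella sort, and rose from 8019 to 13781 and from 9299 to 13890 for E13.5 and juvenile testis against day 16, where its median over all genes moved to -0.55 and -0.67. Replicate numbers are shared, not known to pair samples: deviations of same-numbered samples correlated between -0.034 and 0.558. The fit with the replicate block gave the same counts of members called in all 8 comparisons, 8 for juvenile testis against E13.5 among them. Dim signal leaves only bounds for Cst9, Cst12, Fshr and Amh in most cultured groups.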
